A study of Papio hamadryas with 12 samples.

Results

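EST-cluster targets are array targets whose identifier starts with Hs, the prefix of human UniGene clusters of expressed sequence tags (ESTs). Of 11622 such targets on the array, the 219 described here had a detection p under 0.01 on all 12 arrays, which is 1.88% of the Hs targets (95% Wilson interval 1.65% to 2.15%, for counting error only). The array listed 47296 targets in all. The detection p gives the share of negative control beads that are at least as bright as the target, so a low value means a signal above background. The members were chosen by these detection values, so their signal above background is a description and not a finding.

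Illumina arrays, 1 per fetus, measured total RNA of frontal cortex from 12 baboon fetuses of the species Papio hamadryas, taken at 165 days of gestation. Fetuses of nutrient restricted pregnancies (n = 6, 3 male and 3 female) were compared with fetuses of control pregnancies (n = 6, 3 male and 3 female). The restriction's degree and timing, as well as the array's version and the species it was designed for, were not given in the sources used here. Bulk tissue was measured, in which fewer cells of a type and less RNA per cell cannot be told apart.

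Expressed sequence tags are single reads from the ends of cDNA clones, and UniGene gathered overlapping tags into clusters, each meant to stand for 1 transcribed place in the genome. A cluster without a curated transcript can be a noncoding RNA, a long 3′ end of a known gene, a retained intron or an unspliced precursor. The brain is known for long 3′ ends and for many noncoding RNAs. The files pair no identifier with a gene name, and probe sequences were not used here, so members are given by identifier, with no role and no sequence, and markers of cortical cell types were not analysed here.

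The 12 arrays differed in brightness, and 1 stood apart. The median signal over all targets ranged from 73.8 to 113.6 in the nutrient restricted group and from 63.5 to 98.6 in the control group. The array of control fetus 1 had the lowest median and mean signal of the 12. Most counts and medians below are given with and without it, as are the condition differences of many named members. Values called levels are log2 signals after background correction and quantile normalisation, and signals are the deposited linear intensities. Precision is limited by the number of arrays.

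Most targets of the Hs class were detected on no array, and most of those detected were missed on some arrays. Of the 11622 Hs targets, 11057 (95.1%) were detected on 0 arrays at a detection p under 0.01, 346 (2.98%) on some arrays and 219 on all 12. The GI targets, whose identifiers are GenBank numbers, had 6607 of 26098 (25.3%) detected on all 12 arrays and 61.8% on 0. The hmm targets, named here by the start of their identifier, had 114 of 9576 (1.19%) on all 12. Among targets detected on at least 1 array, the share detected on all 12 was 38.8% of 565 Hs targets, 66.3% of 9967 GI targets and 41.2% of 277 hmm targets. These shares compare different probes and were not tested.

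**Figure D1:**
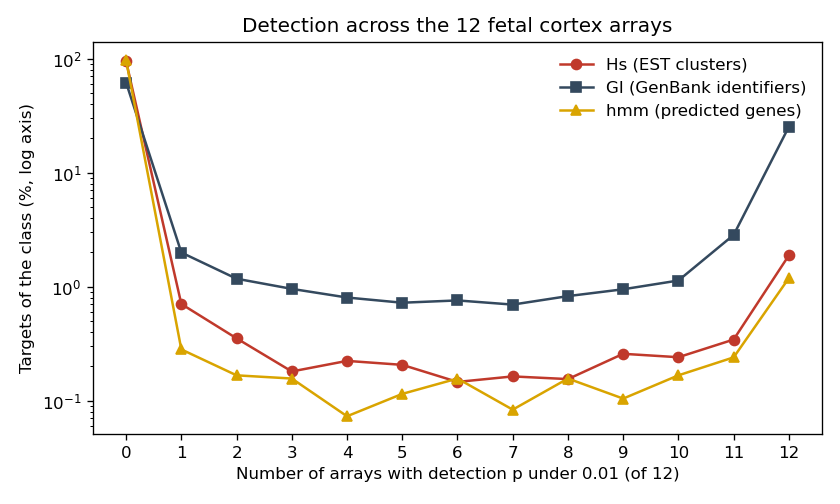
Share of each class of target (percent, log axis) against the number of arrays, of 12, on which the target had a detection p under 0.01. Each class has its highest share at 0 arrays and its next highest at 12, where 1.88% of Hs targets, 25.3% of GI targets and 1.19% of hmm targets lie.

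The number of Hs targets detected per array was 367.83 ± 35.5 in the nutrient restricted group and 373.5 ± 56.7 in the control group (mean ± SD, n = 6 each). The difference of -5.67 targets gave a two-sided exact permutation p = 0.846 over the 924 splits of the arrays. The 219 members count on every array, so this test bears on the other Hs targets only. The lowest count was 302 (fetus 6) and the highest 400 (fetus 4) among nutrient restricted fetuses, against 287 (fetus 6) and 429 (fetus 1) among controls, so the groups overlapped. Control 1 was the dimmest array and also the one with the most Hs targets detected. Of the 40 Hs targets detected on exactly 11 arrays, nutrient restricted 6 was the missing array for 11, control 6 for 10 and control 1 for 0. Of the 743 such GI targets, control 1 was the missing array for 347 (46.7%).

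The members closest to the threshold were Hs.503257-S and Hs.503128-S, each with a highest detection p of 0.00989 over the 12 arrays and mean signals of 181 and 183.8. Just outside lay Hs.395651-S and Hs.408738-S, each with a highest detection p of 0.0105, detected on 11 arrays, with mean signals of 184.3 and 185.1. Targets on both sides of the threshold thus had nearly the same signal.

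Members were more frequent among Hs targets with a low UniGene cluster number, a property the detection rule did not use. With the Hs targets ordered by cluster number in 10 groups of 1162 or 1163, 50 members (4.3%) fell among the lowest numbers, up to 144350. The other 9 groups held between 0.947% and 2.75%. This is a description of the set and was not tested.

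Most members were dim beside the GI targets under the same rule, and a few were among the bright targets of the array. The mean signal of a member over the 12 arrays ranged from 181 to 24403 with a median of 330.6, and the middle part of the members, between the 25th and 75th percentile, lay between 245.8 and 801.2. The median was 243.6 over the 13244 targets tested and 593.3 over the 6600 GI targets under the same rule. Above a signal of 1000 were 41 members (18.7%) and 32.9% of these GI targets. Above 10000 were 5 members (2.28%) and 2.91% of the GI targets. For each member the 10 GI targets nearest in mean signal were therefore taken as its background, 1770 distinct targets in all, and their median signal was 330.7.

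The brightest member was Hs.493562-S, with signals between 17104 and 31797 over the arrays. Its level was 14.42, 14.52 and 14.72 (lowest, median and highest) in the nutrient restricted group, against 14.21, 14.49 and 15.22 in the control group. Control 1 gave the highest value and control 5 the lowest, and the restricted fetuses lay between them. The difference between the groups was -0.02 on the log2 scale (SE 0.15, 95% interval -0.34 to 0.30, limma adjusted p = 0.972). Without control 1 it was 0.11.

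The next brightest, Hs.153400-S, had levels of 13.38, 13.72 and 14.07 in the nutrient restricted group, against 13.41, 13.60 and 13.96 in the control group. Its range over all 12 arrays, 0.69, was the smallest of the 3 brightest members. In the nutrient restricted group its SD was 0.28, against 0.13 for Hs.493562-S, whose highest value was on control 1. In the control group these SDs were 0.19 and 0.34. The difference of Hs.153400-S was 0.08 (SE 0.14, limma adjusted p = 0.872), and 0.14 without control 1. The member ranked 3 by level, Hs.469194-S, had levels of 13.38, 13.68 and 13.95 in the nutrient restricted group, against 13.09, 13.46 and 14.21 in the control group. Its difference was 0.17 (SE 0.18, limma adjusted p = 0.767), and 0.31 without control 1. The groups overlapped for all 3 of these members.

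Between fetuses of the same condition, the members had a higher median SD than GI targets of the same signal in the quantile normalised values. This SD of the level, pooled over both conditions, had a median of 0.30 over the 219 members, with 0.16 and 0.60 at the 5th and 95th percentiles. The matched GI targets had a median of 0.25, with 0.13 and 0.49 at these percentiles. For 145 members (66.2%) the SD was above the median of their own 10 matched GI targets. Without control 1 the medians were 0.27 for members and 0.23 for matched GI targets, and 131 members (59.8%) lay above their matches. With every array scaled to the same median instead, the gap was gone, with medians of 0.293 for members and 0.299 for matched GI targets. On the authors' processed values they were 0.32 and 0.27. The hmm targets had a median SD of 0.32 in the quantile normalised values. No test was made of these medians, since targets on the same arrays are not replicates.

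**Figure D2:**
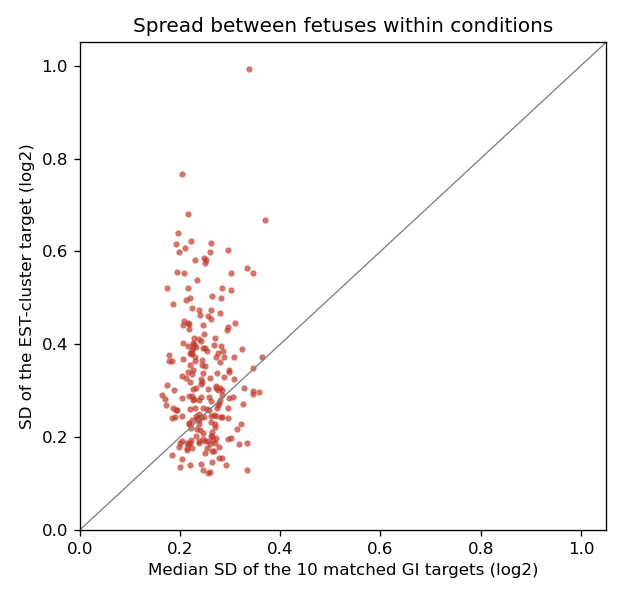
SD between fetuses within conditions (log2) of each of the 219 EST-cluster targets against the median SD of its 10 matched GI targets, with the line of equality. Of the points, 145 lie above the line, and the highest, Hs.482030-S, has an SD of 0.99.

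In the quantile normalised values, the gap to the matched GI targets was widest among bright members. Among the 73 dimmest members the median SD was 0.24, against 0.25 in their matched GI targets. It was 0.30 against 0.26 for the next 73, and 0.37 against 0.23 for the 73 brightest. The medians of dim members and their matches thus nearly coincided, while those of bright members and their matches were apart. Without control 1 the medians of the 73 brightest were 0.32 and 0.22.

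Hs.482030-S had the highest SD of the members, 0.99. Its levels were 7.09, 10.08 and 10.45 (lowest, median and highest) in the nutrient restricted group, against 9.32, 10.48 and 11.22 in the control group. The low value came from nutrient restricted fetus 6, where its signal was 197.2, while its highest signal on any array was 1731.7. The difference between the groups was -0.81 (SE 0.49, limma adjusted p = 0.603), and -0.65 without control 1. Both values include nutrient restricted fetus 6, and the next lowest level in its group was 9.87. The group medians, 10.08 and 10.48, lay closer together than the group means, 9.61 and 10.42.

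Hs.510761-S had levels of 7.68, 8.84 and 9.35 in the nutrient restricted group, against 7.64, 8.87 and 10.26 in the control group, with a pooled SD of 0.77. Hs.486040-S had 7.75, 8.83 and 9.24 in the nutrient restricted group, against 7.66, 8.60 and 10.03 in the control group, with a pooled SD of 0.68. Both had their highest value on control 1 and values spread over more than 2 log2 units, with a range of 2.62 for Hs.510761-S and 2.36 for Hs.486040-S. Their differences between the groups were -0.20 (SE 0.38) and 0.02 (SE 0.34). Without control 1 they were 0.07 and 0.28.

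The members moved together from array to array. For each array the deviation of every member from its mean on the other 11 arrays was taken, and the median over members was 0.40 on control 1, where 200 of 219 members were above the mean of the other arrays. It was 0.18 on nutrient restricted 5 and 0.17 on nutrient restricted 4. The lowest medians were -0.20 on control 2 and -0.15 on control 3, and the remaining 7 arrays lay between -0.07 and 0.0047. For the matched GI targets all 12 medians lay between -0.03 and 0.06 in these quantile normalised values. On the authors' processed values they ranged from -0.15 on nutrient restricted 4 to 0.16 on control 3. There the members had medians of 0.04 on nutrient restricted 4 and 0.06 on nutrient restricted 5. These lay 0.19 and 0.20 above the matched GI targets.

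**Figure D3:**
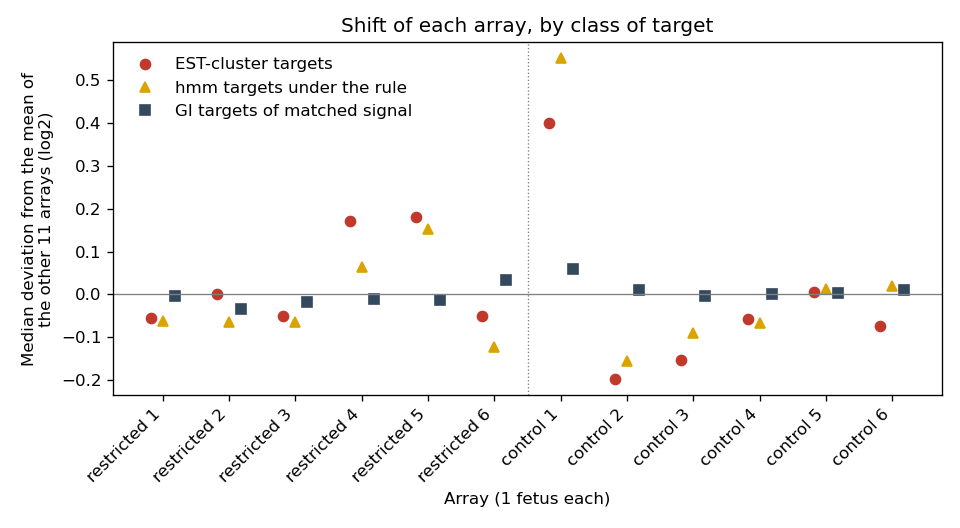
Median deviation of the quantile normalised levels (log2) of each array from the mean of the other 11. Shown are the 219 EST-cluster targets, the 114 hmm targets under the same rule and the matched GI targets. Nutrient restricted fetuses are on the left and controls on the right. EST-cluster and hmm targets reach 0.40 and 0.55 on control 1, while the matched GI targets lie between -0.03 and 0.06 on all arrays.

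Control 1 was the array with the highest value for 96 members (43.8%), against 21% of the matched GI targets, and it was the farthest from the others for 75 members. Nutrient restricted 5 was the highest array for 47 members (21.5%), against 10.5% of the matched GI targets. The shift on control 1 was present at all levels, with medians of 0.29, 0.40 and 0.72 for the dimmest, middle and brightest 73 members. Relative to the matched GI targets it was 0.34 after normalisation, 0.27 on the log2 of the deposited signals and 0.37 on the authors' processed values. On the deposited signals themselves the members lay 0.32 below the other arrays on control 1, and the matched GI targets 0.59 below, so the members were less dim there than GI targets and not brighter in absolute terms.

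The hmm targets under the same rule moved in a similar way on some arrays, with medians of 0.55 on control 1, 0.15 on nutrient restricted 5 and -0.16 on control 2. On nutrient restricted 4 their median was 0.06, against 0.17 for the members. On nutrient restricted 6 it was -0.12, against -0.05 for the members. Measures of RNA quality for single fetuses were not used here, and their part in this shift was not tested.

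Members followed each other over the 12 arrays. With the mean of each condition removed, the median Pearson r over all 23871 pairs of members was 0.33, and 79.8% of pairs were above 0. Among the matched GI targets the median was 0.0036, with 50.3% above 0, and among the hmm targets it was 0.32. The points of each correlation share the 12 arrays and their normalisation, so these values describe the arrays and were not tested. The 1st principal component of the members held 38.6% of their variance and had the same sign for 194 of 219. Its highest scores were 7.54 on control 1, 3.71 on nutrient restricted 5 and 3.51 on nutrient restricted 4. Without control 1 it held 33.3%, with the same sign for 161 members, and nutrient restricted 5 and 4 were the highest arrays, at 5.42 and 4.22.

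The most alike members were Hs.487099-S and Hs.469194-S, both bright, with r = 0.985 over the 12 arrays and 0.971 without control 1. Hs.487099-S had levels of 12.21, 12.63 and 12.92 in the nutrient restricted group, against 11.95, 12.49 and 13.26 in the control group. Both were highest on control 1 and lowest on control 5.

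The design sets nutrient restricted fetuses against controls, and the study's title names growth restriction as its subject. With limma and Benjamini-Hochberg adjustment over the 13244 targets tested, no EST-cluster target passed the threshold between the conditions: 0 were higher and 0 lower at 0.05 (smallest adjusted p = 0.475). Over all targets the shares called were 0.0% in each direction. At an unadjusted p under 0.05, 11 members were higher in the nutrient restricted group, 5.02% of the members beside 4.18% of all targets tested. Another 11 were lower, 5.02% beside 5.31% of all targets. The members were thus called about as often as any target. With every array scaled to the same median, 2 were higher and 18 lower, beside 1.33% and 8.11% of all targets. The authors' processed values gave 3 higher and 18 lower, beside 2.76% and 8.14%. These scalings moved the median difference of all targets to -0.08 and -0.06, and the members' median lay 0.06 above their matched GI targets under both, against 0.07 in the quantile normalised values.

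The differences of single members were small. They lay between -0.81 and 0.55 on the log2 scale, with a median SE of 0.17. The measured difference was over 2-fold for 0 members and over 1.5-fold for 4. The 95% interval lay wholly within 2-fold for 207 members (94.5%) and wholly within 1.5-fold for 130 (59.4%).

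The median difference over the members, nutrient restricted minus control, was 0.048, and 129 members (58.9%) had a value above 0. In the matched GI targets the median was -0.02, with 46.2% above 0, and over all targets tested it was -0.0038. Control 1, on which the members were high, moved these values. Without that array the median was 0.13 and 162 members (74%) were above 0. Then 38 members passed an unadjusted p under 0.05 as higher and 6 as lower, 17.4% and 2.74% of the members. All targets tested without control 1 gave 5.23% higher and 5.08% lower, and the matched GI targets 6.03% and 5.98%. The 38 included all 11 of the members higher on the full set of arrays, and the 6 were all among the 11 lower ones. After adjustment the count without control 1 was 0, as it was for 0.0% of all targets (smallest limma adjusted p = 0.452).

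Other single arrays moved the values too. The members were high on nutrient restricted fetuses 4 and 5. When fetus 4 was left out the median difference was 0.0050, with 7 members higher and 10 lower by the unadjusted p, beside 3.03% and 3.56% of all targets. When fetus 5 was left out it was 0.0095, with 6 higher and 9 lower, beside 2.79% and 3.5% of all targets. In the other direction, leaving out fetus 6 gave 0.08, with 15 higher and 8 lower, beside 6.22% and 7.27%. When control 2, the lowest control array, was left out it was 0.0035, with 4 higher and 14 lower, beside 3.66% and 4.36%. Without control 3 the counts were 6 and 11, beside 3.85% and 5.71%, and without nutrient restricted fetus 2 they were 5 and 8, beside 3.46% and 4.27%. With arrays weighted in limma (arrayWeights), the median difference was 0.12, with 29 members higher and 7 lower, beside 6.06% and 7.17% of all targets.

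**Figure D4:**
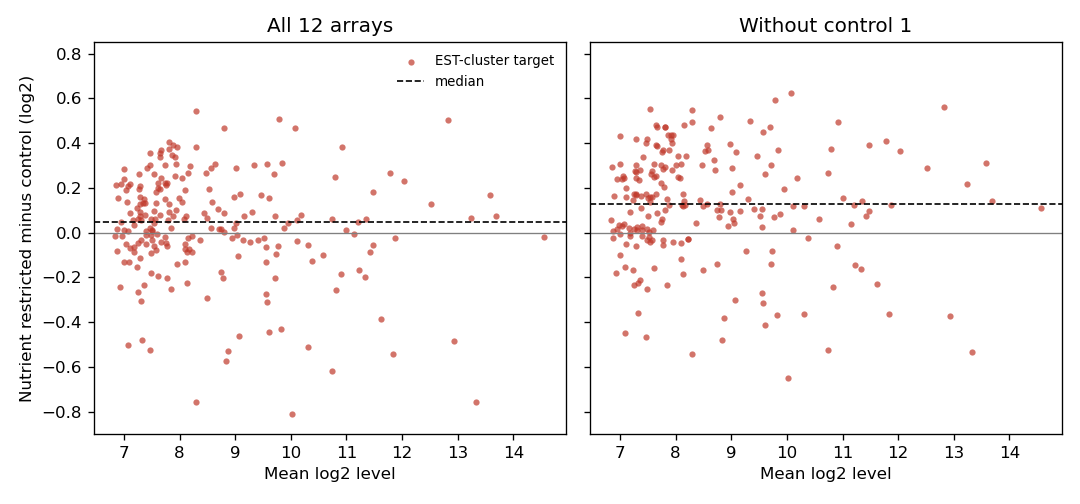
Difference between the conditions (nutrient restricted minus control, log2) of each of the 219 EST-cluster targets against its mean log2 level, with all 12 arrays on the left and without control 1 on the right. The dashed median is 0.048 on the left and 0.13 on the right, and no point passed an adjusted p under 0.05.

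Hs.116769-S had the smallest p of the members. Its levels were 8.29, 8.61 and 8.76 (lowest, median and highest) in the nutrient restricted group, against 7.72, 8.07 and 8.23 in the control group. All 6 nutrient restricted fetuses were above every control. The means were 8.57 ± 0.19 and 8.02 ± 0.20 (SD, n = 6 each), a difference of 0.55 (SE 0.12, 95% interval 0.28 to 0.81, 1.46-fold), with a limma adjusted p = 0.475. It was the only member whose groups did not overlap with the nutrient restricted group higher, where 0.272% of all targets tested did so. With every array scaled to the same median 0 members did so, beside 0.0% of the matched GI targets. On the authors' processed values 1 member did, beside 0.183% of the matched GI targets. The difference of Hs.116769-S was 0.59 in males (SE 0.18) and 0.50 in females (SE 0.18), and it was 0.55 without control 1.

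Hs.143801-S had levels of 7.42, 7.63 and 8.03 in the nutrient restricted group, against 7.03, 7.29 and 7.62 in the control group. Nutrient restricted fetus 5 was the highest, and 4 of 6 nutrient restricted fetuses were above every control. The difference was 0.35 (SE 0.12, limma adjusted p = 0.477). Without control 1, the highest of the controls, it was 0.42 (limma adjusted p = 0.452).

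In the other direction, Hs.491858-S had levels of 6.59, 6.81 and 7.07 in the nutrient restricted group, against 6.89, 7.29 and 7.76 in the control group. Of the controls, 5 lay above every nutrient restricted fetus. The means were 6.83 ± 0.21 and 7.33 ± 0.32 (SD, n = 6 each), a difference of -0.50 (SE 0.15, limma adjusted p = 0.475). Hs.519046-S had levels of 7.54, 7.82 and 8.62 in the nutrient restricted group, against 8.28, 8.44 and 9.74 in the control group. The highest value was that of control 1, and 5 of 6 nutrient restricted fetuses were below every control. The difference was -0.76 (SE 0.24, limma adjusted p = 0.475) and -0.54 without control 1. The only member whose groups did not overlap with the nutrient restricted group lower was Hs.492173-S, where 0.249% of all targets tested did so. With every array scaled to the same median 0 members did so, beside 0.228% of the matched GI targets. On the authors' processed values 0 did, beside 0.32%. Hs.492173-S was chosen for mention after its values were seen, and its difference was -0.48 (SE 0.16, limma adjusted p = 0.475).

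**Figure D5:**
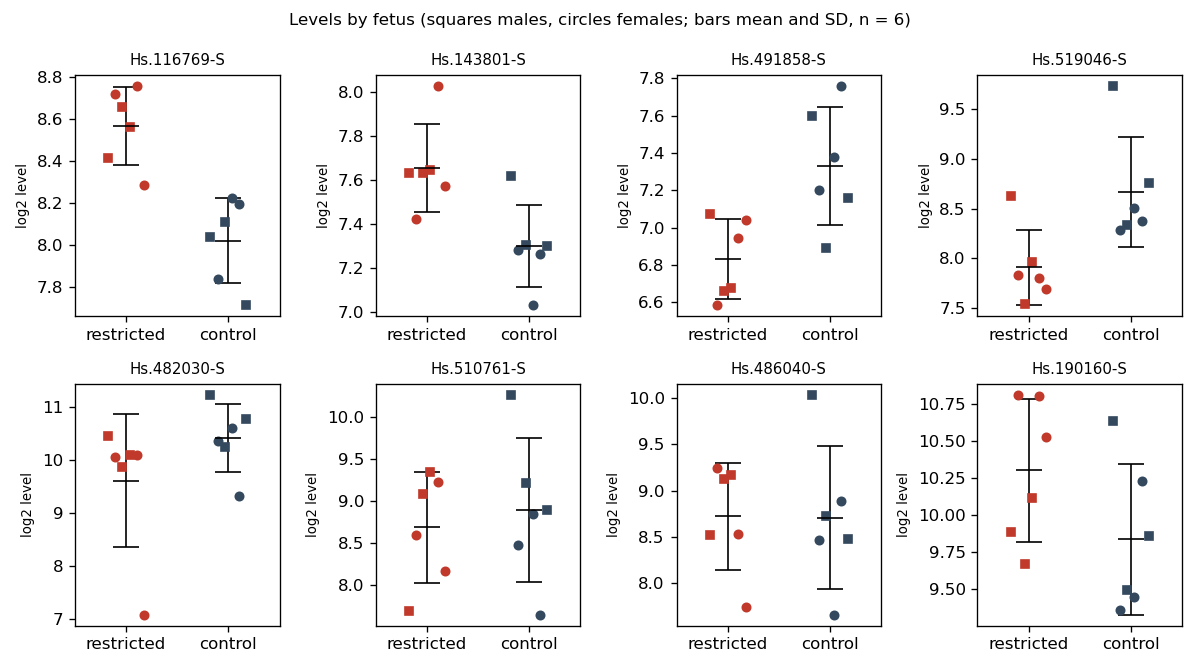
Normalised log2 levels of 8 EST-cluster targets by fetus, nutrient restricted on the left and control on the right of each panel, with the mean and SD (n = 6 each). In these quantile normalised levels, Hs.116769-S is higher in all 6 nutrient restricted fetuses than in any control. Hs.482030-S has 1 low value, 7.09, in nutrient restricted fetus 6.

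The labels also give the sex of each fetus. Of the members, 0 were higher and 0 lower in females than in males after limma's adjustment, where 0.0% and 0.0453% of all targets tested were (smallest member's adjusted p = 1.0). At an unadjusted p under 0.05, 0 members were higher in females (1.46% of all targets) and 7 lower (1.8% of all targets). The median difference, females minus males, was -0.07 over the members and -0.0074 over all targets tested, and 145 members were lower in females. Control 1 was a male fetus. Without it the median was 0.01 and 105 members were lower in females. By the unadjusted p, 2 were then higher and 2 lower, beside 2.04% and 1.89% of all targets. With arrays of equal median, 0 were higher (0.468% of all targets) and 23 lower (2.88%). On the authors' values, 0 were higher (1.26%) and 15 lower (2.37%).

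Hs.487012-S had the smallest p between the sexes. Its levels were 6.90, 7.21 and 7.42 in females, against 7.21, 7.57 and 7.88 in males. The difference was -0.38 (SE 0.13), and the ranges overlapped. Hs.371609-S had 8.76, 9.35 and 10.29 in females, against 9.60, 9.83 and 10.01 in males, a difference of -0.42 (SE 0.16). In the nutrient restricted group its mean was 9.02 in females and 9.76 in males, against 9.78 and 9.87 in the control group. Its highest female value, 10.29, was that of control 5 and lay above every male. The next highest female, control 4, had 9.56 and lay below every male, as did the remaining females. Neither member passed the threshold between the sexes (limma adjusted p = 1.0 for both).

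The effect of the condition was not shown to differ between the sexes for any member. After limma's adjustment, the effect in females was higher than that in males for 0 members and lower for 0, as for 0.0% of all targets in each direction (smallest adjusted p of a member = 0.999). At an unadjusted p under 0.05, 5 were higher (2.28% of members, 1.48% of all targets) and 0 lower (1.24% of all targets). Without control 1 the counts were 1 (0.982% of all targets) and 2 (0.867%). With arrays of equal median they were 1 (0.211%) and 4 (4.6%), and on the authors' values 8 (2.27%) and 0 (0.914%).

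Hs.190160-S had the smallest p for this difference. In females its level was 10.71 ± 0.16 in the nutrient restricted group and 9.68 ± 0.48 in the control group (SD, n = 3 each). In males it was 9.89 ± 0.22 in the nutrient restricted group and 9.99 ± 0.58 in the control group. The difference was 1.04 in females and -0.10 in males, and these differed by 1.14 (SE 0.42, limma adjusted p = 0.999). The highest of the male controls was control 1.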

How the data were processed

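Values in the deposited table are, per the file headers, mean bead signals (linear intensity, not normalised), each beside a deposited detection p-value. GenomeStudio 1.9.0 was used, per the submitters' processing notes. The authors' processed values were deposited in log2 units, as their match to the signals showed. Of 22148 targets in that table, 21964 had values within 0.01 of the log2 of a signal that had a constant subtracted and was then divided by a factor, both specific to the array. Their column medians lay between -0.0005 and 0. Whether the deposited signals had a background subtracted was not given in the sources used here.

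Members and lists were chosen with earlier results of these data known. Background correction and quantile normalisation used limma 3.58.1 (neqc, offset 16) in R 4.3.3. Targets tested had detection p-values under 0.05 on 6 or more arrays, 13244 after taking the brighter of the 2 listings of 7 repeated identifiers. Conditions were compared over all 12 arrays with lmFit and eBayes, the sexes and the effect by sex in a fit of 4 group means, with Benjamini-Hochberg adjustment over all tested targets. All 219 members passed this filter. For each member the 10 GI targets nearest in mean signal under the same detection rule were its background, as a description. Named members are, by rule, the 2 per direction with the smallest p between conditions, the 3 brightest, the 3 with the highest SD, the 2 with the smallest p between sexes, the 1 with the smallest p for the effect by sex, those at the threshold and the most correlated pair. The fit was tested on simulated data with independent noise for each target, which lacks the shared movement of the members over arrays. Alternatives changed background, scaling, offset, filter, moderation, weights, covariates, values and the detection rule, or left out each fetus. Joins and plots used Python 3.11.15 with pandas 2.3.3, numpy 2.4.6, matplotlib 3.10.9 and scipy 1.17.1.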

Additional observations from a re-analysis of the deposited data

Results flagged for a closer look

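In groups of 6 fetuses, a value is reported here when its gap to the nearest other value was over 0.625 of the range of the group. Of 58 sets of values examined, 10 had such a value. Chance gives about 5% for independent sets, or 2.9, and these sets share arrays and targets. Some sets are levels of members named for a high SD or a small p in these same data. The 5% does not apply to those, so the count of 10 is a description only.

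Control 1 was the high value in 8 of them. The median level of the members was 8.52 on its array, against 7.82 to 8.04 in the other controls. The median deviation of the members from the other arrays was 0.40, against -0.20 to 0.0047, and the root mean square deviation 0.62, against 0.27 to 0.39. The score on the 1st component of the members was 7.54, against -3.08 to -0.58. The median deviation was also high for the hmm targets, at 0.55, with the next control at 0.02, and for the matched GI targets, at 0.06, with the next at 0.01. For Hs targets that were tested but are not members, the root mean square deviation was 0.44, with the next control at 0.32. Hs.519046-S had a level of 9.74 on control 1, with the next control at 8.76.

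Nutrient restricted fetus 6 had a level of 7.09 for Hs.482030-S, with the next at 9.87. Nutrient restricted fetus 5 had a level of 8.03 for Hs.143801-S, with the next at 7.64. The causes of these values were not tested.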

How the results depend on the processing

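At an adjusted p under 0.05 the count of members was 0 between conditions, between sexes and for the effect by sex under every alternative run. The count at an unadjusted p under 0.05 between conditions, 22, was 36 with array weights (29 higher and 7 lower, beside 6.06% and 7.17% of all targets), 49 with the 576 members of a rule at a detection p under 0.05 (31 higher and 18 lower, beside 4.18% and 5.31% of all targets), and between 13 (without nutrient restricted 2) and 44 (without control 1). The share of Hs targets that are members was 4.96% under that rule, 2.23% with detection on at least 11 arrays, and 1.88% to 1.98% when 1 fetus was left out. The median difference of members ranged from 0.0035 to 0.13 when 1 fetus was left out, and was 0.12 with array weights, -0.05 with arrays scaled to equal medians and -0.03 on the authors' values. The median SD of members ranged from 0.24 to 0.32. With arrays scaled to equal medians it was 0.293, against 0.299 in the matched GI targets. The difference in Hs targets detected ranged from -22.97 to 7.5 when 1 fetus was left out (lowest exact permutation p = 0.355) and was -44 at a detection p under 0.05 (exact permutation p = 0.509). Between sexes, the unadjusted lower count of 7 was 23 with equal medians (2.88% of all targets) and 15 on the authors' values (2.37%). It was 2 without control 1 (1.89% of all targets) and ranged from 2 to 14 when 1 fetus was left out. For the effect by sex, equal medians moved the median of all targets to -0.28. The higher count of 5 for this effect ranged from 1 to 16 when 1 fetus was left out and from 1 to 28 otherwise. Shares of all targets were not taken for most fits without 1 fetus, so these ranges cannot be set against a background. For the 7 members named by a p, the direction was the same in all 151 combinations with an alternative, with adjusted p from 0.226 to 1.0. These members were chosen for a small p on the same arrays, so a kept direction is no separate support. The labels do not state whether the replicate numbers pair the fetuses, and the main fit did not use them. By these numbers, 4 of 6 pairs were of 1 sex, and the deviations within pairs correlated at -0.22 to 0.58. These values do not settle whether the fetuses were paired. With the replicate number as a block, 10 members passed the unadjusted p as higher and 13 as lower, beside 4.78% and 6.15% of all targets, and 0 passed after adjustment. For the effect by sex 28 were higher (12.8%, beside 3.39% of all targets). The cause was not tested for any of these. The analysis of the shift by array on other scales was chosen after the data were seen. Signal over background limits the set to Hs targets above the detection threshold.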

Other observations

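The 863 Hs targets that were tested but are not members, since 1 or more arrays missed the detection rule, had the same arrays at the extremes as the members. Their median deviation from the other 11 arrays was 0.17 on control 1, 0.09 on nutrient restricted 4, 0.08 on nutrient restricted 5 and -0.13 on control 2. Control 1 was the highest array for 230 of them (26.7%). The rule did not choose these targets, though the filter of detection on at least 6 arrays applied to them. The values are a description and were not tested.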
